A study of Mus musculus with 8 samples.

Results

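Integrins are cell surface receptors made of 1 alpha and 1 beta chain, and the 10 chains described here are those that leukocytes carry on their own and those that many brain cells share. The 10 genes were matched by symbol among the 53278 rows of a table of raw counts, and all 10 had enough counts to be tested: Itgam, Itgal and Itgb2, the leukocyte chains, and Itga4, Itga6, Itga9, Itgav, Itgb1, Itgb5 and Itgb8, which occur in other cell types too. The counts came from bulk RNA sequencing of the whole forebrain of 8 C57BL/6J male mice from the Jax lab, used at an age of 10 to 20 weeks. Control mice (4) ate control food. Depleted mice (4) ate PLX3397 food for 9 days, a food that carries an inhibitor of the kinase CSF1R, on which microglia depend. The drug reaches the whole animal and is not restricted to 1 cell type, and no genetic change was made in either group. The titles name each sample as a separate mouse, so ± gives the SD over the 4 mice of a group and SE the standard error of a fitted fold change.

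An alpha and a beta chain leave the cell's interior together, and neither chain works alone at the surface. The beta2 chain, CD18, is limited to leukocytes and pairs with alphaM (CD11b) to form complement receptor 3, which binds the complement fragment iC3b, or with alphaL (CD11a) to form LFA-1, which binds ICAM adhesion proteins. The beta1 chain is made by nearly every cell and pairs with alpha4, alpha6 and alpha9, among others, as a receptor for VCAM1, laminin and tenascin-type matrix proteins. The alphav chain pairs with beta1, beta5 and beta8. The beta5 pair binds vitronectin and the bridging protein MFG-E8, and the beta8 pair binds latent TGF-beta and releases the active cytokine.

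Total counts per mouse ranged from 48455538 to 68406688. Levels are given as CPM, counts scaled to a common library size by the TMM method of edgeR. The libraries differed in marker genes of forebrain regions: control mice 2 and 3 and depleted mice 2 and 3 had between 1249 and 2081 counts of the hypothalamic peptide gene Hcrt, and the other 4 mice between 4 and 12. A striatum score, the mean log2 CPM of 12 striatal genes, ran from 4.14 to 6.60 in control and from 5.60 to 7.59 in depleted mice. Results were therefore also computed within the mice with and without Hcrt counts, and with the score as a covariate. The microglia label was checked on 17 marker genes, of which 17 were lower in depleted mice, and whose summed level was 328 to 398 CPM in the control group against 34.1 to 41.4 CPM in the depleted group. Fewer cells of a type and less RNA per cell cannot be told apart in bulk tissue.

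In depleted forebrain 3 integrin chains fell and 7 did not pass the test. Itgam fell to 1.49%, Itgb2 to 6.03% and Itgb5 to 56.8% of the control level, whereas none of the other members passed in either direction. At an adjusted p under 0.05 in edgeR's quasi-likelihood test, 3 of the 10 members were called in either direction, where 1.16% of the 20140 genes tested were. All 3 were lower, where 1.11% of all genes were, and 0 were higher, where 0.0546% were. DESeq2 called 4 lower and 0 higher, and limma-voom 3 and 0. At an unadjusted p under 0.05 Itga6 lay lower and Itgb1 higher as well. By p these ranked 279 and 1869 among the 20140 genes. Many genes thus had an unadjusted p under 0.05, which limits every such count given below. The median log2 fold change was -0.24 over the members and -0.000379 over all genes tested. The groups did not overlap in 5 of 10 members, where 5.77% of all genes did not: 4 lay wholly lower in depleted mice (3.5% of all genes) and 1, Itgb1, wholly higher (2.28%).

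**Figure D1:**
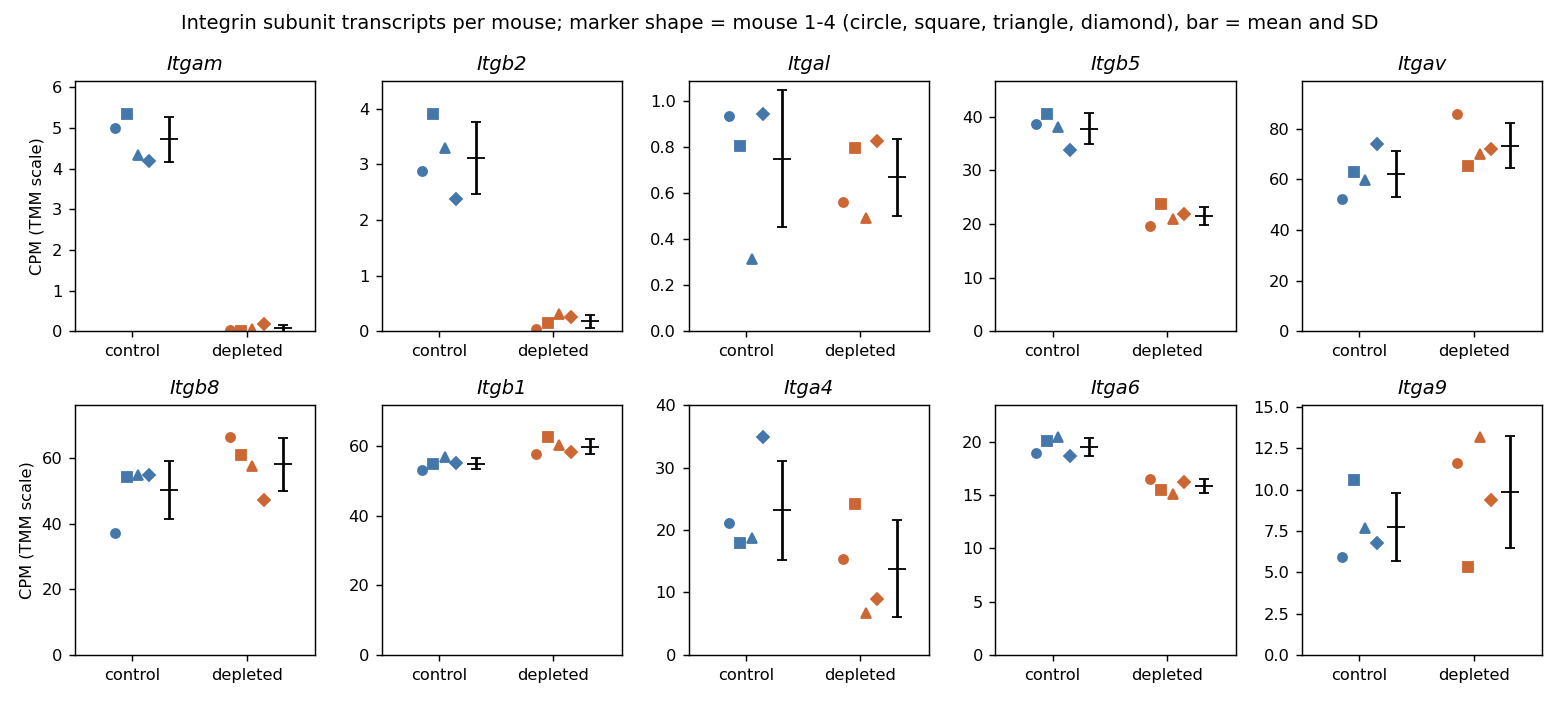
CPM on the TMM scale (vertical axes, each from 0) of the 10 integrin genes in the 4 control and 4 depleted mice; each marker is 1 mouse, its shape the mouse number, and the bar beside each group is the mean with the SD. Itgam and Itgb2 lay near 0 in every depleted mouse, Itgb5 lay between 19.6 and 23.7 CPM there against 33.9 to 40.6 in control mice, and Itgal overlapped between the groups.

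Itgam, the gene of the CD11b chain by which microglia and other myeloid cells are commonly sorted, was close to undetected after the drug. It lies on chromosome 7, 128062640 to 128118491 (mm10, plus strand). Its counts were 274, 260, 236 and 227 in control mice 1 to 4 and 2, 0, 4 and 9 in depleted mice 1 to 4. Every depleted mouse thus lay below every control mouse by more than an order of magnitude. In CPM the level went from 4.72 ± 0.549 to 0.0698 ± 0.0805, which is -6.07 on the log2 scale (SE 0.46, adjusted p = 6.27e-05). The 95% interval of that fold change allowed 0.728% to 3.03% of the control level. Of its 5024 exon bases, 3450 also belong to Gm49368, a gene model on the same strand that was not analysed here, so the Itgam counts depend on how reads in shared exons were assigned.

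Itgb2, the gene of the CD18 chain, fell with it but left more behind. Its locus is on chromosome 10, 77530252 to 77565708 (mm10, plus strand), and its exons overlap no other annotated gene. Control mice 1 to 4 had 158, 190, 179 and 129 counts, and depleted mice 1 to 4 had 2, 7, 21 and 12. The groups did not overlap, and depleted mouse 1 was the lowest. The level went from 3.12 ± 0.646 to 0.182 ± 0.118 CPM (log2 fold change -4.05, SE 0.41, adjusted p = 4.70e-04), with 3.21% to 11.3% of the control level inside the 95% interval.

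Itgal, the gene of the CD11a chain, did not follow its beta partner. The gene sits on chromosome 7, 127296260 to 127335138 (mm10, plus strand), with no shared exon bases. Its counts were 51, 39, 17 and 51 in control mice 1 to 4 and 31, 39, 34 and 40 in depleted mice 1 to 4. The groups overlapped, and control mouse 3 was the lowest of all 8. At 0.748 ± 0.297 CPM in the control group against 0.667 ± 0.166 CPM in the depleted group, the log2 fold change was -0.17 (SE 0.34, adjusted p = 0.904), and the 95% interval ran from 52.1% to 151% of the control level. Its sign was not stable: it was 0.22 with the striatum score as a covariate and 0.20 within the mice with Hcrt counts.

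Other myeloid cells and blood leukocytes can carry CD11a, CD11b and CD18 too. Border-associated macrophages are the macrophages around brain vessels and in the meninges. Of 8 of their genes 5 could be tested and 3 fell, where 1.11% of all genes tested did. Their summed level was 12.6 to 17.7 CPM in control against 3.17 to 5.96 CPM in the depleted group, with every depleted mouse lower. Stab1 was the most abundant of them, and without it the other genes held between 73 and 267 counts per library. None of the 10 neutrophil genes had enough counts to be tested, their summed level was 0.438 to 1.47 CPM in the control group against 0.329 to 0.779 CPM in the depleted group, and the defining Ly6g was at 0 in all 8. Of the 12 T and NK cell genes, 2 could be tested and 0 passed in edgeR, with 1 at an unadjusted p under 0.05. Their summed level, 2.65 to 16.3 CPM in the control group against 6.24 to 35.7 CPM in the depleted group, was mostly Cd4, and without Cd4 the other genes held between 39 and 109 counts per library. Of the 6 B cell genes 3 could be tested and 0 passed in edgeR, with 0 at an unadjusted p under 0.05. Their sum was 8.47 to 15.6 CPM in the control group against 5.72 to 23.2 CPM in the depleted group, mostly Ighm, and without it 20 to 121 counts. Of the 6 monocyte genes 2, Nr4a1 and Ace, could be tested and 0 passed in edgeR, with 0 at an unadjusted p under 0.05. Their sums of 78.2 to 173 CPM in the control group against 76.8 to 138 CPM in the depleted group came mostly from Nr4a1, which neurons also make. Without it the other genes still held 1027 to 1985 counts, but among these Ccr2, Ly6c2, Plac8 and Chil3 had too few to be tested. The part of any of these cells in the levels of Itgam, Itgb2 and Itgal was not tested.

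Within each mouse the ratio of 2 chains shows whether both moved alike, free of library scaling. The 10 ratios were compared by exact two-sided permutation tests over the 8 mice (70 splits, smallest possible p = 0.0286), with Benjamini-Hochberg adjustment over the 10, and 6 passed. All 6 had that smallest p, and fewer than 6 at it could not have passed. The ratios share chains, so the 6 are not separate results. Itgam to Itgal follows from the ratios of both to Itgb2, and Itgb5 to Itgb8 from the ratios of both to Itgav. Without 1 mouse (35 splits) 0 passed when any of control mice 1 to 4 or depleted mouse 1 was left out, where the adjusted p of those 6 lay between 0.0571 and 0.143. Without depleted mouse 2, 3 or 4, the number that passed was 7, 6 and 6. With 35 splits the smallest possible p is again 0.0286, so fewer than 6 ratios at it could not pass. All 6 kept their sign without each mouse. The log2 ratio of Itgam to Itgb2 was 0.61 ± 0.22 in the control group against -1.12 ± 1.11 in the depleted group, or -1.73 apart (exact permutation p = 0.0286, adjusted p = 0.0476). Control mice 1 to 4 stood at 0.79, 0.45, 0.39 and 0.81 and depleted mice 1 to 4 at 0.00, -2.28, -1.85 and -0.35. All depleted mice lay lower, but depleted mouse 1 had equal counts of both genes and mouse 2 had no Itgam count, so the size of the difference rested on few reads. It was -2.49 in the mice with Hcrt counts and -0.97 in those without, a division of the ratios added after seeing the data. With a prior count of 0.5 in place of 2 it was -2.28.

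The ratio of Itgal to Itgb2 turned over in counts. Its log2 value was -2.10 ± 0.86 in the control group against 1.87 ± 1.01 in the depleted group, or 3.97 apart (exact permutation p = 0.0286, adjusted p = 0.0476). Every control mouse therefore had more Itgb2 than Itgal counts, and every depleted mouse more Itgal than Itgb2. Counts are not scaled for exon length, which is 6569 bases for Itgal and 3052 for Itgb2. Per kilobase depleted mouse 3 still had more Itgb2 (0.0993 CPM) than Itgal (0.0747 CPM), unlike the other depleted mice. The log2 ratio of Itgam to Itgal went from 2.71 ± 0.67 to -2.99 ± 1.09 (difference -5.69, exact permutation p = 0.0286, adjusted p = 0.0476). Both differences kept their sign in all 13 alternatives. Scaling per kilobase and averaging the differences of same-numbered mice are among these, and by construction neither can change a difference.

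The bases before the transcription start are shown for both members that fell and have an entry in RefSeq's promoter table (Itgam and Itgb5; Itgb2 is not among the 7 members matched), with the shared chain gene Itgb1 beside them. Each run is the 250 bases before the start (build GRCm38.p6, plus strand, 5′ to 3′). Capitals mark GAGGAA, the core that the myeloid factor PU.1 binds, or its reverse complement TTCCTC.
Itgam, chr7:128062390-128062639: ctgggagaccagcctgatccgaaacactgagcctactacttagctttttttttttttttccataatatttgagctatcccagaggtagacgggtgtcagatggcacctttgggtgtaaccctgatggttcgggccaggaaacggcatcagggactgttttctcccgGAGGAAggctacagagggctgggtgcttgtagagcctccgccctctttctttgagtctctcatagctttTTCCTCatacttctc
Itgb5, chr16:33829415-33829664: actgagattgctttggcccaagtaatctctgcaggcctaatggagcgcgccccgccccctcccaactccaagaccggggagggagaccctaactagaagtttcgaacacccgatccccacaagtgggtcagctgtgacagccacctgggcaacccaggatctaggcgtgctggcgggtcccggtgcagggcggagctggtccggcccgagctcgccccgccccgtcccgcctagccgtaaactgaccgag
Itgb1, chr8:128685404-128685653: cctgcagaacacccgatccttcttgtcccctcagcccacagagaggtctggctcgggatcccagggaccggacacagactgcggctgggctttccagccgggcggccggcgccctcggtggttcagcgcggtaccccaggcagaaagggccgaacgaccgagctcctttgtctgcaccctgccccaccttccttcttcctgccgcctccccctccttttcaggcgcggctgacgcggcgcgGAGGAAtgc
The Itgam window held 2 matches, starting 84 bases before the start on the forward and 15 bases before it on the reverse strand. The Itgb5 window held 0 and the Itgb1 window 1, starting 9 bases before the start. Of the 32851 promoter windows of that length in the table, 23.3% held the motif on either strand. CG dinucleotides numbered 6 in the Itgam window, 18 in that of Itgb5 and 21 in that of Itgb1, against a median of 6 over all windows. A match describes letters only and is not a bound site.

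Itgb5, the gene of the beta5 chain, lost the most transcript of any member, although a good part of it stayed. The gene sits on chromosome 16, 33829665 to 33949338 (mm10, plus strand), with no shared exon bases. Control mice 1 to 4 had 38.6, 40.6, 38.1 and 33.9 CPM, and depleted mice 1 to 4 had 19.6, 23.7, 20.8 and 21.8 CPM. The groups lay well apart, with coefficients of variation of 7.48% in control and 7.95% in depleted mice. The mean went from 37.8 ± 2.83 to 21.5 ± 1.71 CPM (log2 fold change -0.82, SE 0.08, adjusted p = 3.75e-04, 95% interval 50.2% to 64.2% of the control level). Beside this fall, 3 of 10 genes of oligodendrocyte precursors fell, where 1.11% of all genes tested did, and 6 had an unadjusted p under 0.05. Their summed levels were 318 to 405 CPM in control against 336 to 377 CPM in the depleted group. Their mean log2 CPM was 4.68 to 5.03 in control against 4.47 to 4.72 in the depleted group. Of 10 mature oligodendrocyte genes 0 passed in edgeR, but 8 had an unadjusted p under 0.05 and all 10 lay higher (median log2 fold change 0.50). The part of either cell type, of microglia or of any other cell type in the Itgb5 level was not tested. Per kilobase of exon Itgb5 had a loss of 4.59 CPM, against 0.926 for Itgam and 0.962 for Itgb2.

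The alpha partner of beta5 lay on the other side of 0 without passing. Itgav (chromosome 2, 83724397 to 83806916, mm10, plus strand) had 52.1, 62.8, 59.6 and 74.0 CPM in control mice 1 to 4 and 86.0, 65.4, 70.1 and 72.2 CPM in depleted mice 1 to 4. The groups overlapped (log2 fold change 0.24, SE 0.11, adjusted p = 0.483), and the 95% interval ran from 99.0% to 141% of the control level. Of its 10744 exon bases, 634 are shared with the opposite-strand gene model Gm13684. The log2 ratio of Itgb5 to Itgav was -0.71 ± 0.29 in the control group against -1.77 ± 0.27 in the depleted group, or -1.06 apart (exact permutation p = 0.0286, adjusted p = 0.0476).

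Itgb8, the gene of the beta chain that activates latent TGF-beta, did not pass either. Its locus is on chromosome 12, 119158022 to 119238802 (mm10, minus strand), with no shared exon bases. Its level was 37.1, 54.4, 55.0 and 54.8 CPM in control mice 1 to 4 and 66.4, 61.1, 57.6 and 47.4 CPM in depleted mice 1 to 4. Control mouse 1 stood far below the other control mice, and the groups overlapped (log2 fold change 0.21, SE 0.14, adjusted p = 0.642). The 95% interval ran from 93.0% to 144% of the control level. Against Itgav its log2 ratio was -0.31 ± 0.18 in control and -0.34 ± 0.21 in depleted mice (difference -0.03, p = 0.857, adjusted p = 0.857, exact permutation test). Against Itgb8, Itgb5 was lower in depleted mice, with a log2 ratio of -0.40 ± 0.32 in control and -1.43 ± 0.26 in depleted mice (difference -1.03, exact permutation p = 0.0286, adjusted p = 0.0476).

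**Figure D2:**
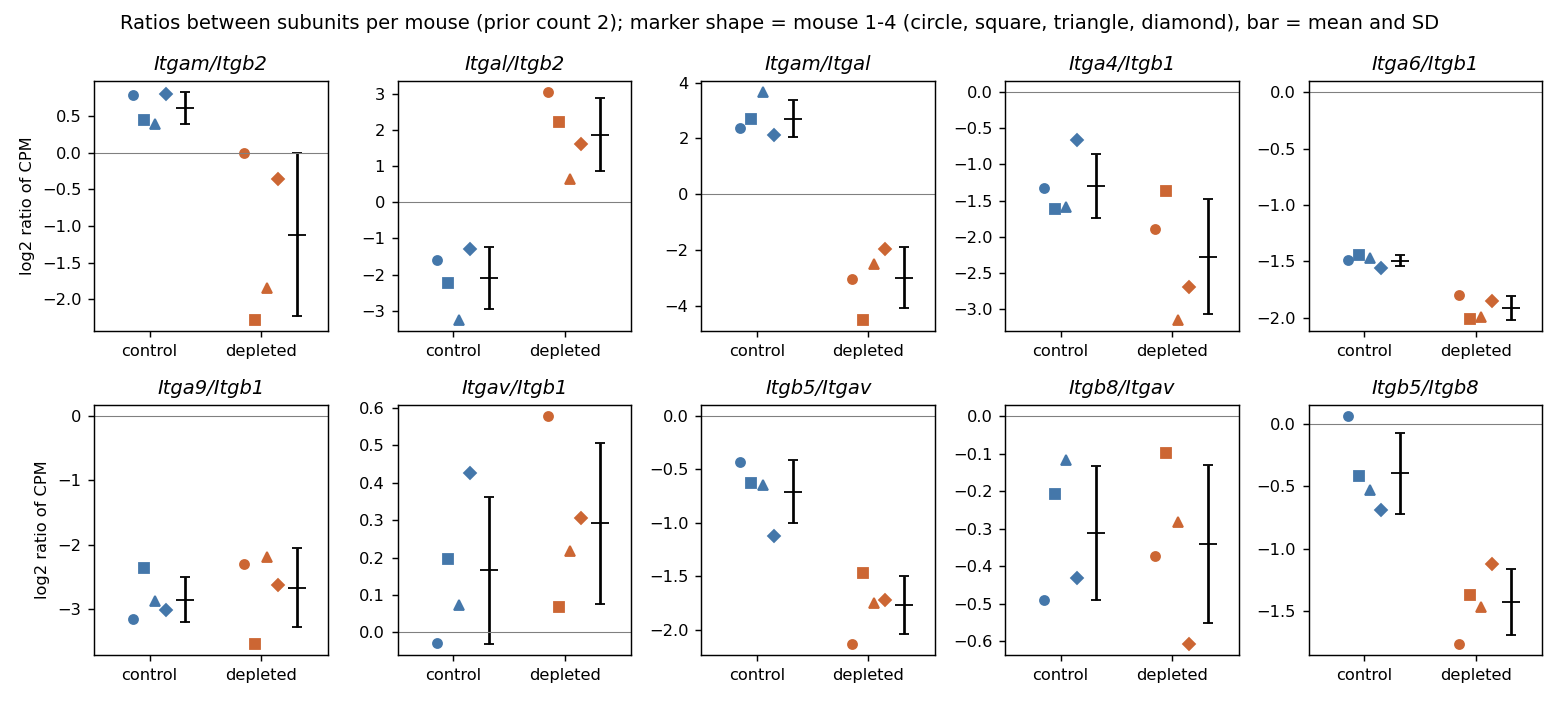
Log2 ratio of CPM between 2 integrin chains (vertical axes, prior count 2) in the 4 control and 4 depleted mice; each marker is 1 mouse, its shape the mouse number, and the bar is the mean with the SD. The ratio of Itgal to Itgb2 lay below 0 in the control mice and above 0 in the depleted mice, and that of Itgb8 to Itgav overlapped between the groups. Ratios are not scaled for exon length.

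Itgb1, the most abundant of the 10 chains per kilobase of exon though not in CPM, varied least between mice. It lies on chromosome 8, 128685654 to 128733200 (mm10, plus strand), with no shared exon bases. Control mice 1 to 4 had 53.2, 54.8, 56.7 and 55.1 CPM, and depleted mice 1 to 4 had 57.6, 62.5, 60.3 and 58.4 CPM. All depleted mice lay just above all control mice. The log2 fold change was 0.12 (SE 0.05) and did not pass over all genes (adjusted p = 0.426), with a 95% interval, not adjusted for the number of genes, of 100.5% to 117% of the control level.

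The laminin receptor chain gene Itga6 lay lower in every depleted mouse without passing. It lies on chromosome 2, 71745616 to 71858416 (mm10, plus strand), with no shared exon bases. Control mice 1 to 4 had 18.9, 20.1, 20.4 and 18.6 CPM and depleted mice 1 to 4 had 16.5, 15.5, 15.1 and 16.2 CPM. The groups did not overlap, and the level left was 81.1% (log2 fold change -0.30, SE 0.07, adjusted p = 0.0891). DESeq2 alone of 20 alternatives passed it (adjusted p = 0.00219), in a range of adjusted p up to 0.836. Relative to Itgb1, its beta partner, the log2 ratio was -1.49 ± 0.05 in control and -1.91 ± 0.11 in depleted mice (difference -0.42, exact permutation p = 0.0286, adjusted p = 0.0476). That difference was -0.54 in the mice with Hcrt counts and -0.30 in those without, a division also added after seeing the data. Endothelial cells also carry alpha6, and of 12 endothelial marker genes 0 passed in edgeR, with 0 at an unadjusted p under 0.05, and their summed level was 271 to 339 CPM in the control group against 275 to 341 CPM in the depleted group.

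Itga4 and Itga9, the close relatives among the alpha chains that pair with beta1, varied more between mice than the other members that did not pass, Itgal aside. Itga4, the gene of the VCAM1 receptor chain (chromosome 2, 79255426 to 79333123, mm10, plus strand), had 21.2, 17.9, 18.8 and 34.8 CPM in control mice 1 to 4 and 15.4, 24.1, 6.74 and 8.95 CPM in depleted mice 1 to 4. Depleted mouse 2 stood inside the control range, and the groups overlapped (log2 fold change -0.75, SE 0.37, adjusted p = 0.505, 95% interval 33.3% to 106% of the control level). Of its 13978 exon bases, 1124 are shared with Cerkl on the opposite strand. Itga9, whose chain binds tenascin C (chromosome 9, 118606690 to 118901003, mm10, plus strand), had 5.92, 10.6, 7.66 and 6.77 CPM in control mice 1 to 4 and 11.6, 5.33, 13.2 and 9.36 CPM in depleted mice 1 to 4. Here depleted mouse 2 was the lowest of all 8 (log2 fold change 0.35, SE 0.27, adjusted p = 0.693, 95% interval 84.3% to 194% of the control level). Their ratios to Itgb1 differed by -0.98 (exact permutation p = 0.0857, adjusted p = 0.122) and 0.19 (p = 0.60, adjusted p = 0.667) on the log2 scale. Without depleted mouse 2 the ratio of Itga4 to Itgb1 passed (-1.29, exact permutation adjusted p = 0.0408).

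Both genes ordered the mice much as the striatum score did, in opposite directions. Within each group Itga9 rose mouse by mouse with the score: control mice 1, 4, 3 and 2 had scores of 4.14, 5.08, 6.02 and 6.60, and depleted mice 2, 4, 1 and 3 had scores of 5.60, 7.24, 7.27 and 7.59. This relation was looked for after the values were seen, in the 7 members that did not pass, and the score itself differed between the groups, so the coefficients over all 8 mice describe these mice and test nothing. For Itga9 Pearson's r was 0.873 and Spearman's rho 0.905, and for Itga4 r was -0.785 and rho -0.905. Without control mouse 1 and depleted mouse 3, which had the lowest and the highest score, r over 6 mice was 0.835 for Itga9 and -0.905 for Itga4. For the other 5 members r lay between -0.476 and 0.642. The mice with and those without Hcrt counts were 4 each, too few for a correlation of their own.

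**Figure D3:**
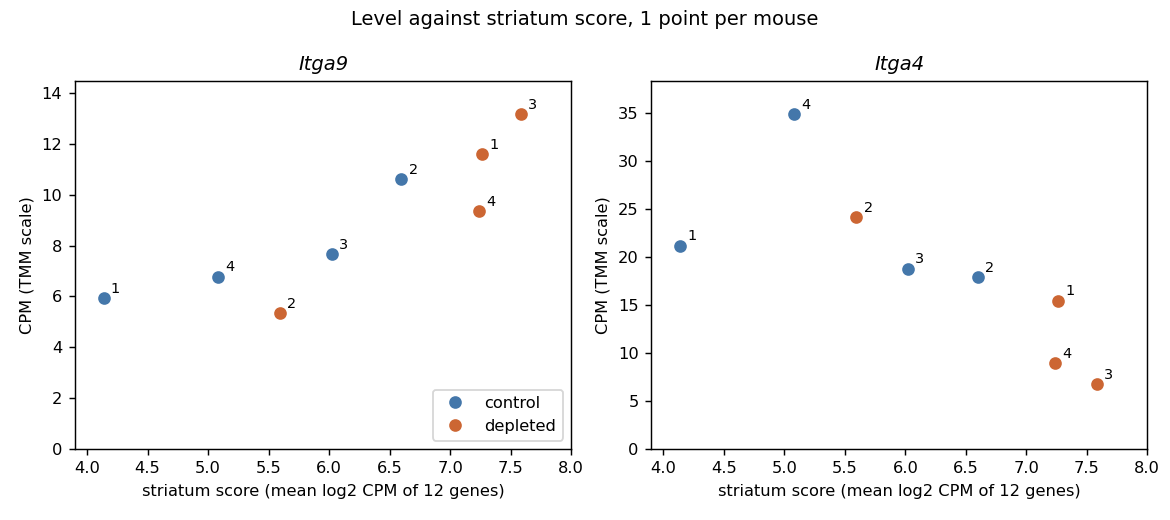
CPM of Itga9 (left) and Itga4 (right) against the striatum score, the mean log2 CPM of 12 striatal genes; each point is 1 mouse, numbered within its group. Itga9 was highest and Itga4 lowest in depleted mouse 3, which had the highest score, 7.59.

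With the score as a covariate, the log2 fold change of Itga4 was -0.19 (adjusted p = 1.00) and that of Itga9 turned to -0.32 (adjusted p = 1.00), while Itgam, Itgb2 and Itgb5 still passed. Within the mice with Hcrt counts Itgam stood at -7.08, Itgb2 at -3.95 and Itgb5 at -0.82, and within those without at -5.39, -4.23 and -0.80. All 6 values passed at adjusted p of 0.0477 or less.

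**Figure D4:**
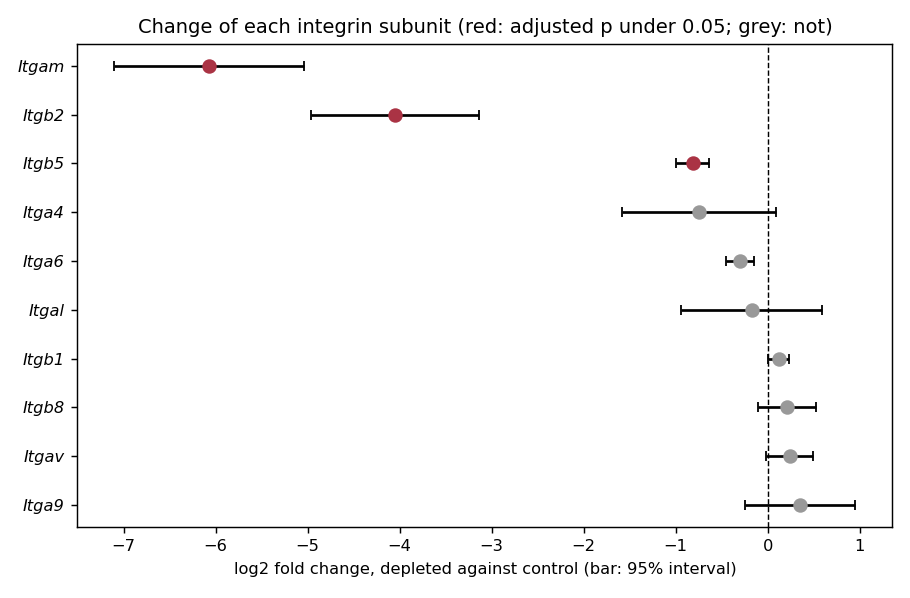
Log2 fold change of each integrin gene, depleted against control (horizontal axis), with its unadjusted 95% interval from edgeR; red points passed at an adjusted p under 0.05 and grey points did not. Itgam (-6.07), Itgb2 (-4.05) and Itgb5 (-0.82) passed, and the other 7 lay between -0.75 and 0.35.

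Levels of different genes were compared per kilobase of exon. In control forebrain the order was Itgb1 (13.5 ± 0.353 CPM per kilobase), Itgb5 (10.6 ± 0.795), Itgav (5.78 ± 0.845), Itgb8 (4.55 ± 0.798), Itga6 (2.16 ± 0.0959), Itga4 (1.66 ± 0.566), Itgb2 (1.02 ± 0.212), Itga9 (1.01 ± 0.265), Itgam (0.940 ± 0.109) and Itgal (0.114 ± 0.0452). The ranges over mice overlapped between Itgav and Itgb8 and between each pair of neighbours from Itga6 to Itgam. Itgb1, Itgb5 and Itgal each stood apart from their neighbours. In depleted forebrain Itgb5 (6.04 ± 0.480) came after Itgav (6.83 ± 0.824) and overlapped with both Itgav and Itgb8, and the last places went to Itgal (0.102 ± 0.0252), Itgb2 (0.0597 ± 0.0386) and Itgam (0.0139 ± 0.0160), where the ranges of Itgal and Itgb2 and those of Itgb2 and Itgam overlapped and those of Itgal and Itgam did not.

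Added up per kilobase, Itgb1, Itgb2, Itgb5 and Itgb8 gave 29.7 ± 1.40 CPM in the control group against 26.0 ± 1.14 CPM in the depleted group. Itgb5 held 35.9% ± 2.33 of that sum in control and 23.3% ± 1.47 in depleted mice, and Itgb2 3.43% ± 0.580 and 0.231% ± 0.153. The share of Itgb1 went from 45.4% ± 1.59 to 56.3% ± 1.22 and that of Itgb8 from 15.3% ± 2.34 to 20.2% ± 2.51. These are shares of 1 sum, so a loss of Itgb5 raises the others. The 6 alpha chains summed to 11.7 ± 1.26 and 10.97 ± 1.05 CPM per kilobase, with Itgam at 8.16% ± 1.45 of the sum in control and 0.129% ± 0.154 in depleted mice.

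**Figure D5:**
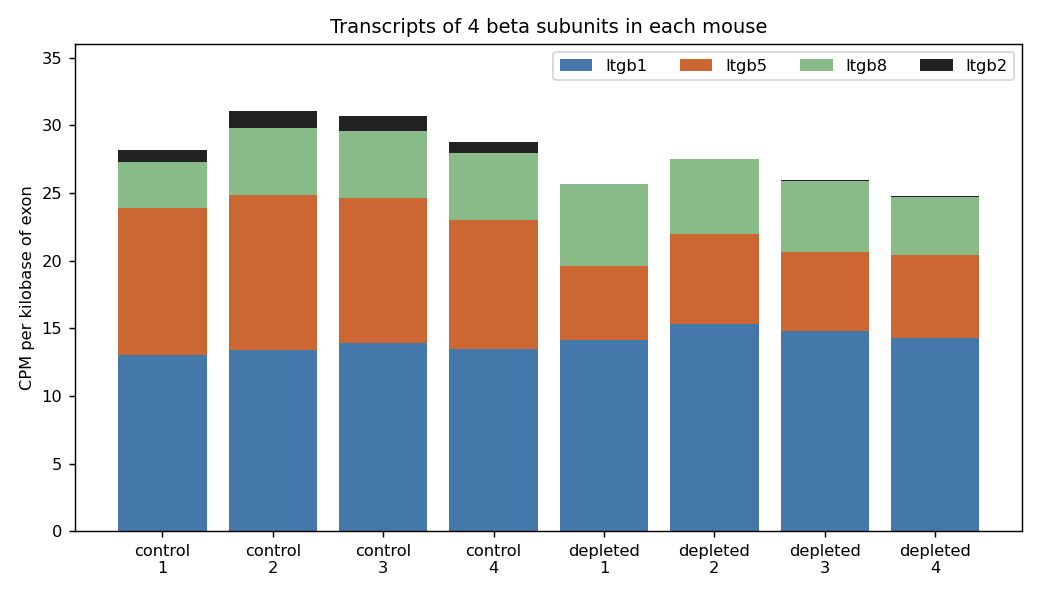
Stacked CPM per kilobase of exon (vertical axis, from 0) of Itgb1, Itgb5, Itgb8 and Itgb2 in each of the 8 mice. The Itgb5 block was smaller in each depleted mouse than in each control mouse, and the Itgb2 block, 2.72% to 4.13% of the sum in control mice, was at most 0.382% in depleted mice.

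For each member that fell, the genes with the closest pattern were those with the smallest root mean square difference in centred log2 CPM over the 8 mice, among 15535 genes whose mean log2 CPM was 0 or higher. The means of Itgam and Itgb2 themselves lay below that cut-off, so genes as low as these were not candidates. Itgam was closest to the complement gene C1qb (0.288 log2 units), Csf1r (0.356) and C1qa (0.389). Itgb2 was closest to the purinergic receptor gene P2ry12 (0.493), Arhgap45 (0.538) and the microglial marker gene Tmem119 (0.539). Itgb5 was closest to the amino acid transporter gene Slc7a7 (0.0912), to Ccdc88b (0.0973) and to Ppp1r18 (0.105), whose own log2 fold changes were -0.89, -0.93 and -0.70. This measure groups genes mainly by how far they fell.

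The remaining integrin chains did not pass. Of 12 other alpha chain genes 11 could be tested and 0 passed in edgeR, DESeq2 or limma-voom, while 3 had an unadjusted p under 0.05 (median log2 fold change -0.14). The smallest p belonged to Itga10, a collagen receptor chain gene (7.89 ± 1.40 to 5.58 ± 0.554 CPM, log2 fold change -0.50, SE 0.14, adjusted p = 0.245), and to Itga5, a fibronectin receptor chain gene (0.95, SE 0.33, adjusted p = 0.336). Leaving out a single mouse changed both calls. Without control mouse 4 Itga10 passed at -0.62 (adjusted p = 0.0299), and without depleted mouse 2, the lowest of its group at 4.05 CPM, Itga5 passed at 1.21 (adjusted p = 0.0102). Itga5 also passed within the mice without Hcrt counts (1.26, adjusted p = 0.0240), and its value fitted alongside the striatum score was 0.21 (adjusted p = 1.00). Of the 5186 exon bases of Itga10, 1739 belong to the gene model Gm42957 on the same strand too. Itgax, the CD11c chain gene and another partner of CD18, named here after its values were seen, had too few counts to be tested, with 12, 13, 8 and 4 in control mice 1 to 4 and 0, 1, 8 and 7 in depleted mice 1 to 4. Of 5 other beta chain genes 3 could be tested and 0 passed in edgeR, DESeq2 or limma-voom, with 0 at an unadjusted p under 0.05. Itgb3 stood at -0.28 (SE 0.18, adjusted p = 0.616) and Itgb4 at 0.20 (SE 0.22, adjusted p = 0.793).

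Of 31 integrin ligand genes 27 could be tested, and 0 passed in edgeR or limma-voom, 3 in DESeq2 and 6 at an unadjusted p under 0.05 (median -0.13). Mfge8, the gene of the bridging protein that beta5 binds, was 162 ± 4.08 CPM in the control group against 140 ± 2.33 CPM in the depleted group (log2 fold change -0.21, SE 0.05, adjusted p = 0.133), and DESeq2 passed it (adjusted p = 4.03e-04). Adam23, a membrane ligand gene, stood at 0.38 (SE 0.10, adjusted p = 0.167), but passed in DESeq2 (adjusted p = 0.0264) and at 0.48 without depleted mouse 2 (adjusted p = 0.0116). Among 8 genes of latent TGF-beta and the proteins that hold it, 1 fell, where 1.11% of all genes tested did (median -0.20). That was Tgfb1, the cytokine gene whose latent form alphav pairs bind, which left 40.6% of its control level (log2 fold change -1.30, SE 0.17, adjusted p = 0.00344). DESeq2 called 2 of the 8 and limma-voom 1. Within the mice with Hcrt counts Tgfb1 stood at -1.32 (adjusted p = 0.0842) and within those without at -1.28 (adjusted p = 0.0638), short of the threshold in both.

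Inside the cell, the integrin activators and adaptors that fell included genes best known from blood cells. Of 42 genes 41 could be tested, 8 fell, where 1.11% of all genes tested did, and 0 rose (median -0.10). Fermt3, the gene of kindlin-3, which switches on beta chains in blood cells, went from 4.50 ± 0.523 to 1.13 ± 0.192 CPM (log2 fold change -1.98, SE 0.16, adjusted p = 9.59e-05). Its relatives did not pass: Fermt1 stood at -1.34 (SE 0.90, adjusted p = 0.642) and Fermt2 at 0.01 (SE 0.06, adjusted p = 0.964). The talin gene Tln1 stood at -0.17 (SE 0.07, adjusted p = 0.404). These 3 are named after their values were seen. Apbb1ip, the gene of the Rap1 effector RIAM, left 38.0% of its control level, the adaptor gene Fyb 10.5% and the exchange factor gene Vav1 2.09%. Nckap1l, an actin regulator gene of the WAVE complex in blood cells, left 28.0%. The kinase gene Lyn left 33.3%. Syk left 45.9% (adjusted p = 0.0130), but did not pass in 7 of 20 alternatives, among them those without control mouse 3 (adjusted p = 0.0520), depleted mouse 1 (0.0526) or depleted mouse 4 (0.0524).

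Of 14 surface partners of integrins 4 fell, where 1.11% of all genes tested did, and 0 rose (median -0.11). The tetraspanin genes Cd53 and Cd37 left 5.48% and 5.18% of their control levels. The signalling adaptor genes Tyrobp (7.71 ± 1.38 to 0.261 ± 0.171 CPM) and Fcer1g (4.79 ± 0.578 to 0.269 ± 0.146 CPM) left 3.52% and 5.82%. Over the 104 genes tested from these lists 13 were called lower, where 1.11% of all genes were, and 0 higher. The count of lower genes was 20 without depleted mouse 2 and 6 within the mice with Hcrt counts, where Tgfb1, Apbb1ip, Fyb, Lyn, Syk and Fcer1g were among those that no longer passed in a comparison of 2 against 2 mice.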

How the data were processed

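Bulk RNA libraries of the whole forebrain of 4 control and 4 PLX3397-fed mice were grouped by their titles. The deposited table holds raw counts per gene symbol, 1 column per mouse, not normalized. Per the submitters' processing notes the tools were STAR, DESeq, DESeq2, MultiQC and FastQC, listed without roles, and the build was mm10. Their versions, counter, annotation and strand setting were "not given in the sources used here", so reads of overlapping genes cannot be told apart. Replicate pairs had a chi-square per gene of at least 11.2 over genes of 10 or more counts, where sampling noise alone gives about 1, so no library was a copy of another.

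Genes were filtered with filterByExpr (20140 kept) and scaled by TMM, and the quasi-likelihood test of edgeR 4.0.16 (R 4.3.3) was run over all of them, with Benjamini-Hochberg adjustment and a threshold of 0.05. SEs were derived from each fold change and F value, and 95% intervals are not adjusted. Log2 CPM used a prior count of 2. Exon lengths, coordinates and overlaps come from GENCODE M21 (mm10). Members, gene lists and ratios were chosen with earlier results of these data known. Named genes were all members, list genes past the threshold (or the 2 with the smallest p) and the 3 closest patterns per member that fell. A single one of the list genes past the threshold is not reported here. Alternatives used other scalings, filters, DESeq2 1.42.0, limma-voom (limma 3.58.1), blocks, the striatum score, Hcrt subsets and left-out mice. The steps were checked on simulated data.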

Additional observations from a re-analysis of the deposited data

Results flagged for a closer look

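The Itgb8 level of control mouse 1, 37.1 CPM, lay far from the 54.4 to 55.0 CPM of the other 3 control mice: the gap took a share of 0.968 of the group's range, above the 95% critical value of Dixon's test for 4 samples. Of 20 groups of 4 tested (10 genes, both diets) this was the only one, and chance flags about 1 in 20. Without that mouse the log2 fold change of Itgb8 was 0.09 (adjusted p = 0.906), against 0.21 with it. The same mouse had the lowest striatum score of all 8, 4.14, whose part in this value was not tested.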

How the results depend on the processing

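The calls of Itgam (log2 fold change from -7.08 to -5.39), Itgb2 (-4.47 to -3.72) and Itgb5 (-0.87 to -0.78) passed in all 20 alternatives each, so 3 members were called lower in every setting but DESeq2, which added Itga6, and 0 higher. Itgal reversed with the striatum score as a covariate (0.22) and in the mice with Hcrt counts (0.20), and Itga9 with the striatum score (-0.32); neither passed, and the cause was not tested. Itgal has no value with the filter of 1 CPM in 4 samples, which it did not pass. Over all genes, 223 were lower and 11 higher. The lower count was 346 in DESeq2 and 66 in the mice with Hcrt, which are fewer samples. The higher count was 25 with no filter, 6 with 1 CPM in 4 samples, 4 with the replicate block, 118 in DESeq2, 2 with the striatum score, 0 in the mice with Hcrt, 128 in those without and 138 without control mouse 1 and depleted mouse 2, a fit added after seeing the data. Leaving out 1 mouse gave 178 to 441 lower genes (441 without depleted mouse 2) and 2 to 243 higher ones (2 without depleted mouse 3, 243 without depleted mouse 2). Partner genes called lower were 6 in the mice with Hcrt and 12 to 20 without 1 mouse; those called higher were 2 in DESeq2, 2 in the mice without Hcrt, 2 without control mouse 1 and depleted mouse 2 and 0 to 2 without 1 mouse. The 6 ratios past the threshold were again 6 with a prior count of 0.5. Scaling per kilobase also gave 6, but it moves a log2 ratio by the same constant in every mouse and so could not change this number. Without 1 mouse the number that passed was 0 to 7: 0 without control mouse 1, 2, 3 or 4 or depleted mouse 1, and 7 without depleted mouse 2. All 6 kept their sign without each mouse. The log2 difference in the ratio of Itgb8 to Itgav, which did not pass, ran from -0.109 to 0.0603 without 1 mouse and so changed sign, the cause not tested. The titles do not say whether the replicate numbers pair the mice. Same-numbered mice deviated with correlations of -0.216, -0.172, 0.368 and -0.0114, and only control mouse 3 was closest to the depleted mouse of its own number. Hcrt counts did go with the number, being high in mice 2 and 3 of both groups and low in mice 1 and 4. With the number as a replicate block 3 members were called lower and 4 genes in all higher. Counts of 0 to 21 per depleted mouse limit the values of Itgam and Itgb2.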
